A study of Mus musculus with 24 samples.

Results

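Integrins and CD44 are receptors at the cell surface that bind the extracellular matrix, and 10 of their genes were followed here in sorted Nav1.8-positive neurons of mice with 1 or both copies of Tsc2 deleted. They were chosen by name as subunits found on growing axons (Itga1, Itga3, Itga5, Itga6, Itga7, Itga9, Itgav, Itgb1 and Itgb5) together with Cd44. The choice was made with earlier results of these data known. Each of the 10 names matched exactly 1 of the 47643 gene identifiers that were counted. An integrin is a pair of 1 alpha and 1 beta subunit. The alpha subunit largely sets the ligand, and the tail of the beta subunit is joined to actin by talin and kindlin. In sensory neurons, beta 1 integrins carry axon outgrowth over laminin and fibronectin. CD44 is the main receptor for hyaluronan and is joined to actin by ezrin, radixin and moesin.

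All mice carried Nav1.8-Cre and the green reporter Rosa26-ZsGreen, with Tsc2 flox/+ in control mice and Tsc2 flox/null in Nav-Tsc2 mice. Thus the control neurons had lost 1 copy of Tsc2, and the Nav-Tsc2 mice also lacked 1 copy in every other cell. All mice were 8 to 9 weeks old, of a mixed C57BL/6 and AJ background, with 2 males (replicates 1 and 2) and 2 females (replicates 3 and 4) of each genotype. The L4 dorsal root ganglia (DRG) lay on the side opposite a sciatic nerve crush made 3 d before, so that both genotypes had been injured elsewhere and no ganglion came from an uninjured mouse. The sorted population was set by the Nav1.8-Cre driver, whose cells are chiefly unmyelinated nociceptors but include A-fiber neurons, and the sort kept every green cell. From each of the 8 mice, 3 libraries of 100 cells each were sequenced, which gave 8339220 to 34228180 counts on genes per library and 47959617 to 61290435 per mouse. Control libraries held a count for 15925 to 18544 genes and Nav-Tsc2 libraries for 17891 to 20466. Median depths were 16882861 and 17062573 counts. The part of this difference in the levels of weakly expressed genes was not tested. The mouse was the replicate. Values are given as normalized CPM, counts divided by the effective size of the library (TMM), a unit that corrects for depth and not for gene length.

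Tsc2 was lower in Nav-Tsc2 mice (20.9 ± 5.18 against 8.87 ± 1.52 CPM, SD, n = 4 mice each; log2 fold change -1.24, standard error 0.22, edgeR adjusted p = 0.00400). Scn10a, which encodes the nociceptor sodium channel Nav1.8, had 670 ± 138 CPM in control and 608 ± 35.1 CPM in Nav-Tsc2 mice, a difference that was not called. Schwann cell and satellite glia markers were also present, and their summed level over 14 genes was 2977 to 3113 CPM in control and 1952 to 2549 CPM in Nav-Tsc2 mice. Of the 13 glial genes tested, 1 was lower, the calcium-binding protein gene S100b (939 ± 166 against 98.6 ± 71.2 CPM), and 0 were higher, also 0 before adjustment (unadjusted p under 0.05). With the replicate number as a block the myelin gene Mbp was called lower too (edgeR adjusted p = 0.0268).

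The fibronectin receptor subunit Itga5, the laminin receptor subunit Itga7, the shared beta subunit Itgb1, the vitronectin receptor subunit Itgb5 and the hyaluronan receptor Cd44 were higher in Nav-Tsc2 mice, by 114-fold, 4.41-fold, 2.08-fold, 2.43-fold and 3.15-fold in the fitted model. They made up the 5 of 10 genes called higher, with an adjusted p below 0.05 and more than 0.5 on the log2 scale between genotypes (edgeR's quasi-likelihood test, adjusted over all 17178 genes tested), and 0 of 10 were called lower. All 10 passed the filter on low counts, Itga5 only by its level in Nav-Tsc2 mice. Over all genes tested, 9.12% were called higher and 8.00% lower. The laminin receptor subunits Itga3 and Itga6, the collagen receptor subunit Itga1, the tenascin receptor subunit Itga9 and the vitronectin receptor subunit Itgav were not called. The median log2 fold change of the 10 genes was 0.92, against 0.01 over all genes tested. Since the 10 were chosen with earlier results of these data known, these shares and medians describe them and do not test the set. In bulk samples such as these, fewer cells of a type and less RNA per cell cannot be told apart.

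**Figure D1:**
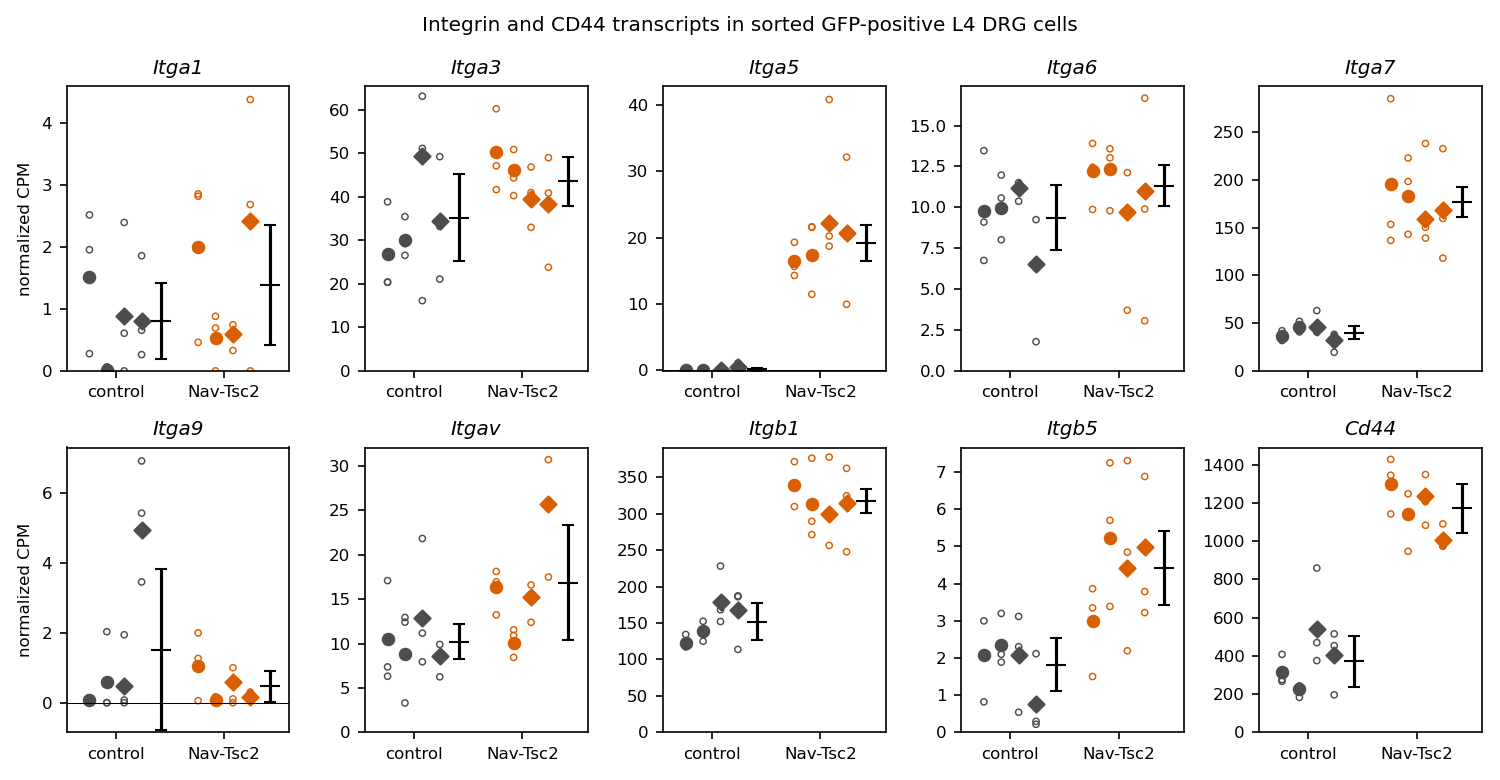
Normalized CPM of each of the 10 genes in control (grey) and Nav-Tsc2 (orange) mice. Filled symbols are the 4 mice of a genotype (circles male, diamonds female), open circles their 3 libraries, and the black bar the mean ± SD over 4 mice, which reaches below 0 for Itga5 and Itga9 in control mice. The 4 Nav-Tsc2 mice lie above the 4 control mice for Itga5, Itga7, Itgb1, Itgb5 and Cd44.

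Itga5 (ENSMUSG00000000555.6, chr15:103344286-103366763, minus strand, GRCm38) pairs with beta 1 to bind the RGD site of fibronectin. It was close to absent in control mice, with 1, 2, 5 and 27 counts in replicates 1 to 4, or 0.0169, 0.0379, 0.0904 and 0.542 CPM. In Nav-Tsc2 mice it had 802, 981, 1363 and 1225 counts, or 16.5, 17.4, 22.3 and 20.7 CPM. The highest control mouse thus lay far below the lowest Nav-Tsc2 mouse. Of its 27 counts in control replicate 4, 25 came from 1 of the 3 libraries, while 5 of the 12 control libraries held no count of Itga5. The log2 fold change was 6.83 (standard error 0.77, edgeR adjusted p = 0.000395), and it was 8.58 without control replicate 4. In control, 1 of 4 mice reached the filter of 0.180 CPM, and in Nav-Tsc2 4 of 4 did.

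Itga7 (ENSMUSG00000025348.8, chr10:128933818-128958282, plus strand) encodes a laminin receptor subunit best known from muscle, which adult sensory neurons use for growth over laminin. Its level was 36.4, 45.9, 46.1 and 32.0 CPM in control replicates 1 to 4 and 195.7, 183.4, 159.6 and 168.8 CPM in Nav-Tsc2 replicates 1 to 4. All 12 Nav-Tsc2 libraries (118 to 285 CPM) lay above all 12 control libraries (19.5 to 63.2 CPM). The log2 fold change was 2.14 (standard error 0.14, edgeR adjusted p = 2.28e-05), the smallest adjusted p of the 10 genes.

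The other laminin receptor subunits were not called. Itga3 (ENSMUSG00000001507.16, chr11:95044474-95076801, minus strand), a receptor for laminins of basement membranes, had 26.9, 30.03, 49.4 and 34.4 CPM in control and 50.2, 46.2, 39.5 and 38.3 CPM in Nav-Tsc2 mice, so that the genotypes overlapped. Its log2 fold change was 0.31 (standard error 0.19, edgeR adjusted p = 0.294), and it passed the threshold without control replicate 3 (0.51, adjusted p = 0.0317). Itga6 (ENSMUSG00000027111.15, chr2:71745616-71858416, plus strand), another laminin receptor subunit, had 6.53 to 11.2 CPM in control and 9.69 to 12.3 CPM in Nav-Tsc2 mice, with a log2 fold change of 0.27 (standard error 0.20, edgeR adjusted p = 0.381).

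Itgb1 (ENSMUSG00000025809.15, chr8:128685654-128733200, plus strand) encodes the beta 1 subunit, the partner of every alpha subunit in the set, Itgav among them. It had 122, 140, 179 and 168 CPM in control and 340, 314, 300.03 and 314 CPM in Nav-Tsc2 mice. The mice of the genotypes were apart, and the lowest Nav-Tsc2 library (248 CPM) lay above the highest control library (228 CPM). The log2 fold change was 1.06 (standard error 0.12, edgeR adjusted p = 0.000415).

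Itgb5 (ENSMUSG00000022817.14, chr16:33829665-33949338, plus strand) pairs with Itgav to bind vitronectin. It was weakly expressed, with 2.07, 2.35, 2.08 and 0.763 CPM in control and 3.00, 5.22, 4.41 and 4.99 CPM in Nav-Tsc2 mice. The mice of the genotypes did not overlap, but their libraries did. The log2 fold change of 1.28 (standard error 0.40) passed narrowly (edgeR adjusted p = 0.0462), and it was not called with the replicate number as a block (adjusted p = 0.0959), with any 1 of the 8 mice left out, or under 3 more of the 16 alternatives. Itgav (ENSMUSG00000027087.11, chr2:83724397-83806916, plus strand), its partner, had 10.6, 8.84, 12.9 and 8.57 CPM in control and 16.3, 10.1, 15.3 and 25.7 CPM in Nav-Tsc2 mice, and the genotypes overlapped. Its log2 fold change was 0.72 (standard error 0.27, edgeR adjusted p = 0.0934). It was called with DESeq2 (adjusted p = 0.0495), with the 24 libraries fitted separately (0.0309) and without Nav-Tsc2 replicate 2 (0.0414). Of the exon bases of Itgav, 5.90% are shared with Gm13684 on the opposite strand.

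Itga1 and Itga9 were near the lower limit of what was measured. Itga1 (ENSMUSG00000042284.9, chr13:114953096-115101964, minus strand), a collagen receptor subunit, held 180 counts over the 12 control libraries and 307 over the 12 Nav-Tsc2 libraries, with a log2 fold change of 0.78 (standard error 0.94, edgeR adjusted p = 0.620). Itga9 (ENSMUSG00000039115.13, chr9:118606690-118901003, plus strand), a tenascin receptor subunit that adult sensory neurons express weakly, held 309 and 101 counts. Of its 309 control counts, 247 came from replicate 4, which had 4.96 CPM while the other control mice had 0.0847 to 0.587 CPM. Its log2 fold change was -1.70 (standard error 1.20, edgeR adjusted p = 0.361), and 0.30 without control replicate 4. No difference was detected for either gene, and their few counts were spread unevenly over the mice.

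Cd44 (ENSMUSG00000005087.17, chr2:102811141-102901665, minus strand) had the highest level of the 10 genes. It was at 318, 226, 539 and 403 CPM in control and 1298, 1142, 1237 and 1008 CPM in Nav-Tsc2 mice. The 12 Nav-Tsc2 libraries (947 to 1427 CPM) again lay above the 12 control libraries (184 to 859 CPM). The log2 fold change was 1.66 (standard error 0.23, edgeR adjusted p = 0.00115).

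Itga5, Itga7, Itgb1 and Cd44 were thus the 4 of 10 genes whose 12 Nav-Tsc2 libraries all lay above the 12 control libraries, a pattern that 2.41% of all genes tested showed. These 4 were called under all 16 alternatives. At the level of mice, 5 of 10 genes had every Nav-Tsc2 mouse above every control mouse, against 14.6% of all genes tested. These shares, too, only describe genes that were chosen with earlier results known.

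**Figure D2:**
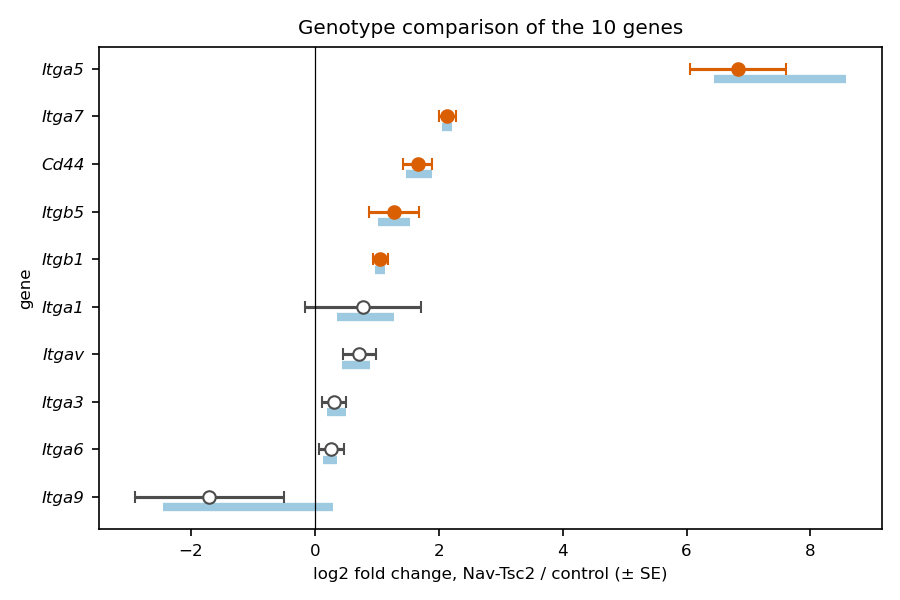
Log2 fold change of Nav-Tsc2 over control mice for each of the 10 genes, with its standard error, from edgeR on 4 mice against 4. Filled orange points are genes called higher and open points genes not called, and each blue bar spans the values under the alternatives. Itga9 is the gene whose bar crosses 0, from -2.45 to 0.30.

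The 250 bases before the transcript starts of Itga5, Itgb1 and Cd44, which were among the genes called higher, are shown (RefSeq, GRCm38.p6). They lie at chr15:103366792-103367041 (minus strand), chr8:128685404-128685653 (plus strand) and chr2:102901666-102901915 (minus strand). Of the 10 genes, 8 matched an entry, and Itga6 and Itga7 did not. Capitals mark GGGCGG, the GC box bound by Sp1 factors, or its reverse complement. The RefSeq starts of Itga5 and Itga9 are not transcript starts of the GENCODE annotation.
Itga5: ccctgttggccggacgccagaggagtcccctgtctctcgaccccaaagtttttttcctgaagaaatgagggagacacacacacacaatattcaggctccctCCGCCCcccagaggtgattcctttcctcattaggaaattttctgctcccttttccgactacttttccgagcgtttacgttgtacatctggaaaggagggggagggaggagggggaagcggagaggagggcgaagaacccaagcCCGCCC
Itgb1: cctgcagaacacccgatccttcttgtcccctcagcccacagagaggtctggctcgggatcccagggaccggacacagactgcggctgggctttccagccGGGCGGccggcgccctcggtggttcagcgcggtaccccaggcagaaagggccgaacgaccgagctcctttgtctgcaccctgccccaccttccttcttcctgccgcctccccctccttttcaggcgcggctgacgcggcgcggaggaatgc
Cd44: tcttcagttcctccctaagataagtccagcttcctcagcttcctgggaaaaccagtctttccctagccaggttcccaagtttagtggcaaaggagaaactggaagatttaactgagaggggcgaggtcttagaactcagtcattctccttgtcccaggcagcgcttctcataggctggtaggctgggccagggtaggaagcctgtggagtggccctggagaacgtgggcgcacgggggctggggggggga
The GC box stands 151 bases before the start of Itgb1, and 149 and 6 bases before that of Itga5, and these letters are not in the window of Cd44. It was in the window of 4 of the 8 genes with an entry (Itga3, Itga5, Itgb1 and Itgb5) and of 32.7% of all 32851 promoters. The AP-1 word TGANTCA, the CRE word TGACGTCA, the TATA word TATAAA and the E-box CACGTG were searched on both strands too and were in 0 of the 8, against 6.75%, 1.55%, 12.4% and 6.02% of all promoters. Overlapping matches were counted. The share of G and C in the window was 55.6% for Itga5, 68.0% for Itgb1 and 56.4% for Cd44, against a median of 52.4% over all promoters. Itgb5, also called higher, had 65.2%. Among genes not called, Itgav had 64.4%, Itga9 58.4%, Itga1 57.6%, and the windows of Itga3 had 67.6% and 50.8%. The window of Itga9 and the Itga3 window with 50.8% lie inside those genes. A high share was thus not particular to the genes called.

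To compare levels between genes, CPM were divided by the length of the merged exons in kilobases (CPM per kb). In control mice Cd44 came first (54.8 ± 19.6 CPM per kb, SD, n = 4 mice), followed by Itgb1 (37.3 ± 6.31), and these neighbours overlapped between mice, since Cd44 lay above Itgb1 in 3 of 4. Itga3 (6.16 ± 1.74 CPM per kb) and Itga7 (4.96 ± 0.868) came next and also overlapped. Below them, Itga6 (1.04 ± 0.220 CPM per kb) and Itgav (0.951 ± 0.186) did not differ beyond their spread, and Itgb5 had 0.511 ± 0.201. Itga9, Itga1 and Itga5 closed the order, all below 0.2 CPM per kb on average.

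Nav-Tsc2 mice had another order. Cd44 (173 ± 18.6 CPM per kb, SD, n = 4 mice) lay above Itgb1 (77.7 ± 4.06) in 4 of 4 mice, and Itga7 (21.9 ± 1.97) lay above Itga3 (7.63 ± 0.985) in 4 of 4 mice, against 1 of 4 control mice. Itga5 moved from the last place to the fifth (3.89 ± 0.554 CPM per kb), above Itga6 in 4 of 4 mice against 0 of 4 control mice. Itgav (1.57 ± 0.605 CPM per kb), Itga6 (1.25 ± 0.139) and Itgb5 (1.24 ± 0.280) overlapped with each other, and Itga1 and Itga9 came last.

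The make-up of the alpha subunits followed from these levels. Summed over the 7 alpha subunits, the level was 13.4 ± 2.44 CPM per kb in control and 36.3 ± 2.38 CPM per kb in Nav-Tsc2 mice (SD, n = 4 mice each). Itga3 held 45.5% ± 5.30 of that sum in control and 20.9% ± 1.59 in Nav-Tsc2 mice, although its own level was not lower. Itga7 went from 37.3% ± 5.39 to 60.1% ± 1.78, and Itga5 from 0.273% ± 0.415 to 10.8% ± 2.20. Together the laminin receptor subunits Itga3, Itga6 and Itga7 made up 87.0% to 93.0% in control and 81.0% to 87.7% in Nav-Tsc2 mice.

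**Figure D3:**
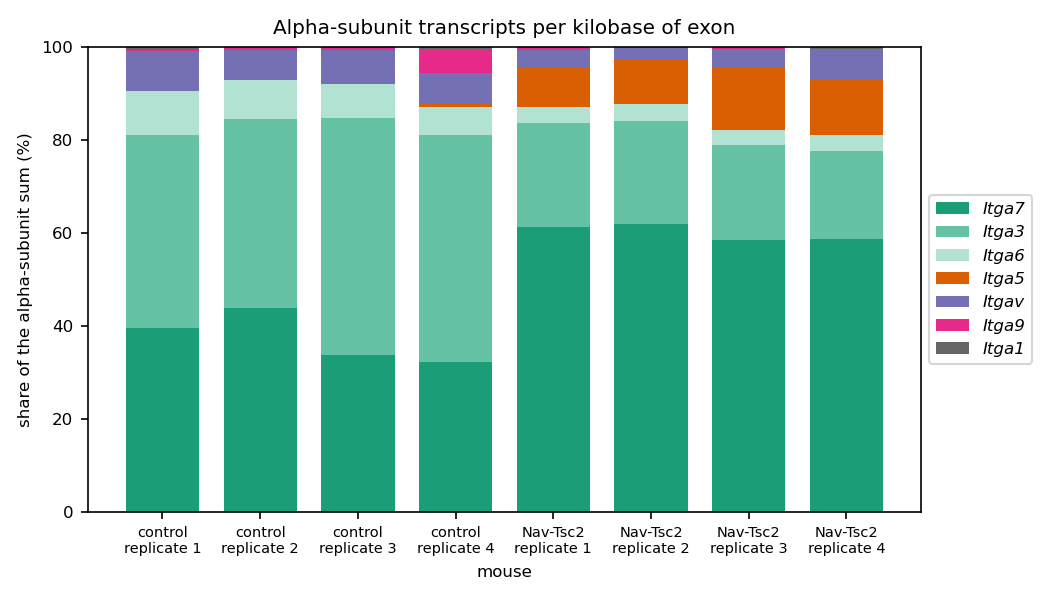
Share of each of the 7 alpha subunits in their summed level per kilobase of exon (%), with 1 stacked bar for each mouse. Itga7 takes 58.4% to 61.9% of the sum in the 4 Nav-Tsc2 mice and 32.2% to 43.8% in the 4 control mice.

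Set against the alpha subunits, the beta 1 subunit had a lower share in Nav-Tsc2 mice. The level of Itgb1 per length was 2.80 ± 0.359 times the alpha sum in control and 2.14 ± 0.0390 times in Nav-Tsc2 mice (SD, n = 4 mice each), with no overlap. The ratio of Itga7 to Itga3 per length was 0.657 to 1.08 in control and 2.75 to 3.11 in Nav-Tsc2 mice. These ratios were not tested and are of transcripts, not of subunits at the cell surface.

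The 3 libraries of a mouse, each of 100 cells, varied among themselves as well. The SD of log2(CPM + 1) was 0.390 among libraries of a mouse for Cd44, 0.530 among control mice and 0.159 among Nav-Tsc2 mice. For Itgb1 these values were 0.256, 0.248 and 0.0742, and for Itga7 they were 0.404, 0.252 and 0.129. Nav-Tsc2 mice thus lay closer together than control mice for each of the 3 genes. For Itgav the order was the other way round, with 0.249 among control and 0.518 among Nav-Tsc2 mice.

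Males and females were compared because the labels give both, and 0 of the 10 genes passed the test of an effect of genotype that differs between the sexes (edgeR, lowest adjusted p of the interaction 0.383, 2 mice of each sex and genotype). At an unadjusted p under 0.05 the interaction passed for 4 of the 10, Itga3, Itga5, Itgb1 and Cd44, against 9.22% of all genes tested, and after adjustment for 1 of 17178 genes (0.00582%). In each of the 4 the log2 fold change was smaller in females. For Itga5 it was 9.18 in males and 6.1 in females, over control means near 0 (0.0274 and 0.316 CPM). Nav-Tsc2 females had more Itga5 on average (21.5 CPM) than Nav-Tsc2 males (16.9 CPM). For Cd44 the log2 fold change was 2.17 in males and 1.25 in females. The control females had more Cd44 (471 CPM on average) than the control males (272 CPM). The values for Itgb1 were 1.32 and 0.83, and those for Itga3 were 0.76 and -0.11. Itga7 had 2.20 in males and 2.07 in females. Neuron markers also differed between the control males and females. The nociceptor gene Mrgprd had 56.0 and 21.9 CPM in the control males and 325 and 233 CPM in the control females. The CGRP gene Calca had 13465 and 14634 CPM in the control males and 6039 and 6511 CPM in the control females. The part of the mix of sorted neurons in these contrasts of the sexes was not tested.

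Among 17 other integrin subunits, 12 passed the filter on low values, 2 were called lower and 0 higher (also 0 before adjustment, at an unadjusted p under 0.05), and their median log2 fold change was -0.20. Itga2b, the platelet fibrinogen receptor subunit, fell by 1.94 on the log2 scale (standard error 0.32, edgeR adjusted p = 0.00266), from 5.68 ± 1.11 to 1.48 ± 0.427 CPM. Itgb6, an epithelial partner of Itgav, fell by 3.91 (standard error 0.91, edgeR adjusted p = 0.0145), from 6.31 ± 3.82 to 0.417 ± 0.506 CPM. With the replicate number as a block Itgb6 was not called (adjusted p = 0.0578), nor with the 24 libraries fitted separately, while Itga2b was called under all 16 alternatives.

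Genes for the proteins that join integrins to actin and to kinases went in both directions. Of 33 tested, 7 were higher and 5 lower, with a median log2 fold change of 0.07. The talin gene Tln1 rose from 75.6 ± 2.31 to 146 ± 11.4 CPM (log2 fold change 0.95, standard error 0.08, edgeR adjusted p = 0.000104), while the other talin gene, Tln2, fell by 0.52 on the log2 scale, from 167 ± 8.60 to 116 ± 15.5 CPM. The focal adhesion protein gene Zyx rose by 1.16, the actin crosslinker gene Flna by 1.45, the kinase gene Fyn by 0.69 and Lims2, of the PINCH family, by 2.57. Its relative Lims1 fell by 0.82, the parvin gene Parva by 1.54, the kindlin gene Fermt2 by 0.69 and the tensin gene Tns2 by 1.76. With the replicate block Tns2 was not called (edgeR adjusted p = 0.0610) and Git1, a scaffold of focal adhesions, was called higher (adjusted p = 0.0326). Tln2 and Fermt2 were each called in 6 of the 8 fits with 1 mouse left out. PINCH and parvin proteins form a complex with integrin-linked kinase at the beta tail.

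Integrins are taken into axons and back to the surface on recycling endosomes. Of 13 tested trafficking genes, 3 were higher and 1 lower, with a median log2 fold change of -0.02. The Rab11 effector gene Rab11fip1, which is known to escort integrins, rose from 0.238 ± 0.284 to 4.36 ± 1.94 CPM (log2 fold change 4.19, standard error 0.90, edgeR adjusted p = 0.0101). Its relative Rab11fip5 (40.6 ± 3.05 against 73.3 ± 3.88 CPM) and the recycling gene Ehd1 (18.7 ± 6.27 against 39.3 ± 2.56 CPM) were also higher, and the early endosome gene Rab4a was lower (118 ± 9.63 against 67.4 ± 8.37 CPM).

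Of 27 tested ligands of the matrix, 5 were higher and 0 lower, with 1 lower at an unadjusted p under 0.05, and the median log2 fold change was 0.89. Tgfbi, a secreted integrin ligand, rose from 0.556 ± 0.767 to 45.2 ± 8.04 CPM (log2 fold change 6.37, standard error 0.75, edgeR adjusted p = 0.000476). The laminin chain gene Lama5 rose from 0.106 ± 0.107 to 5.30 ± 0.972 CPM (log2 fold change 5.63, standard error 0.66, edgeR adjusted p = 0.000448). Lama5 passed the filter only by its level in Nav-Tsc2 mice, with at most 0.0947 CPM in control replicates 1 to 3. The laminin chain gene Lamb3 (0.359 ± 0.231 against 1.75 ± 0.344 CPM), the tenascin gene Tnr (7.19 ± 2.82 against 13.6 ± 1.74 CPM) and the nidogen gene Nid1 (9.89 ± 4.30 against 18.3 ± 2.24 CPM) passed the threshold as well, but not stably. Lamb3 was called in 3, Tnr in 2 and Nid1 in 1 of the 8 fits with 1 mouse left out, against 8 of 8 for Tgfbi and Lama5. The count of 5 was 2 without any 1 of the 4 Nav-Tsc2 mice, 3 without control replicate 1, 3 with upper-quartile scaling or no filter, and 10 with the 24 libraries fitted separately. With the replicate block it was 4, and Nid1 was not called (edgeR adjusted p = 0.0548). Without control replicate 3, 2 genes of the list were called lower.

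Among 13 tested membrane partners of integrins, 3 were higher and 2 lower. The tetraspanin genes split, since Cd9 fell by 1.71 on the log2 scale, from 4637 ± 1534 to 1419 ± 40.9 CPM, and Cd151, a partner of the laminin receptors, fell by 0.92, while Cd63 rose from 70.9 ± 13.6 to 365 ± 32.8 CPM (log2 fold change 2.36, standard error 0.15, edgeR adjusted p = 2.24e-05). The urokinase receptor gene Plaur rose from 14.4 ± 5.71 to 62.2 ± 12.8 CPM, and Slc3a2, the heavy chain of amino acid transporters that also binds beta 1 tails, from 58.0 ± 7.90 to 106 ± 11.2 CPM. With the replicate block the semaphorin receptor gene Nrp1 was called lower as well (edgeR adjusted p = 0.0186). Beside Cd44 itself, 22 tested genes of hyaluronan and of CD44 partners held 1 lower gene, the hyaluronan-binding proteoglycan gene Ncan (155 ± 47.2 against 69.3 ± 9.97 CPM), and 0 higher (3 higher and 4 lower before adjustment, at an unadjusted p under 0.05). The moesin gene Msn (555 ± 124 against 782 ± 58.7 CPM) had an edgeR adjusted p of 0.0375, and its log2 fold change of 0.50 (standard error 0.15) missed the fold threshold. With the replicate block Msn was called higher (log2 fold change 0.52, adjusted p = 0.0200) and the hyaluronan link protein gene Hapln1 lower (adjusted p = 0.0454).

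**Figure D4:**
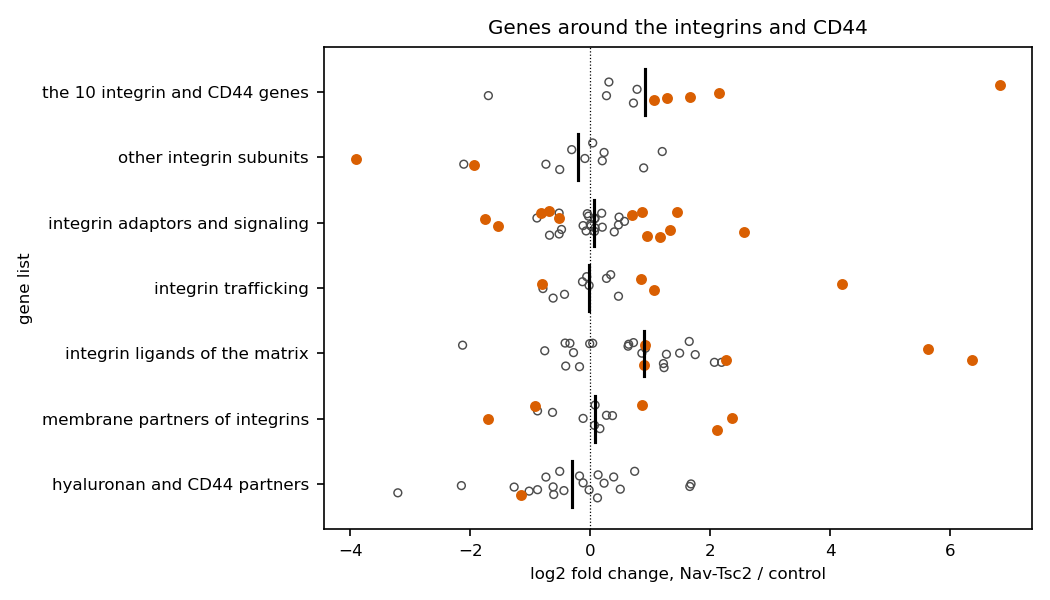
Log2 fold change of Nav-Tsc2 over control mice for the genes tested in each list, from edgeR on 4 mice against 4. Orange points were called, open points were not, and black lines are medians. Called genes of the adaptor list lie on both sides of 0, and those of the matrix list above it.

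Integrins and CD44 are also made by vascular and immune cells, and some markers of those cells moved with the genotype. Of 10 endothelial markers, 5 passed the filter and 3 were higher, Flt1 (0.0338 ± 0.0295 against 8.56 ± 4.01 CPM), Ly6c1 and Kdr. Flt1 and Ly6c1 passed the filter only by their level in Nav-Tsc2 mice, with at most 0.0602 and 0.0339 CPM in control. They could thus hardly be called other than higher. The summed level of the 10 was 14.1 to 22.05 CPM in control and 19.8 to 35.4 CPM in Nav-Tsc2 mice. Egfl7, the highest of them, had 16.5 ± 4.27 against 13.8 ± 2.22 CPM and was not called. Kdr was called in 7 of the 16 alternatives and in 1 of the 8 fits with 1 mouse left out. The defining endothelial genes Pecam1, Cdh5, Cldn5 and Tie1 averaged at most 0.422 CPM in either genotype. Of 6 mural cell markers, 4 passed the filter and 2 were higher, Acta2 (16 of 16 alternatives) and Pdgfrb (6 of 16), and the sum was 4.54 to 46.7 CPM in control and 19.8 to 150 CPM in Nav-Tsc2 mice. Rgs5, the mural marker of highest level, made up most of the upper end of these sums and was not called. It had 2.24, 1.23, 0.724 and 38.7 CPM in control replicates 1 to 4. In Nav-Tsc2 replicates 1 to 4 it had 90.6, 1.19, 0.800 and 124 CPM. Of 9 macrophage markers, 6 passed the filter and 1 was higher, the fractalkine receptor gene Cx3cr1 (0.0328 ± 0.0197 against 5.71 ± 3.01 CPM). Cx3cr1, too, passed the filter only by its level in Nav-Tsc2 mice, with at most 0.0602 CPM in control. The sum of the 9 macrophage markers was 2.33 to 8.53 CPM in control and 9.87 to 20.8 CPM in Nav-Tsc2 mice. Csf1r (0.803 ± 0.955 against 3.71 ± 1.12 CPM) and Cd68 (0.495 ± 0.531 against 2.03 ± 0.476 CPM) were not called, though their mice did not overlap. C1qb, the highest of the list in control, went the other way (1.75 ± 1.01 against 0.574 ± 0.979 CPM) and was not called. Aif1 (log2 fold change 0.34) and Mrc1 (0.19) were not called either. Adgre1, Ptprc and C1qa averaged 0.203 CPM or less in each genotype. None of the 6 fibroblast markers passed the test in either direction, with 0 at an unadjusted p under 0.05 (sum 73.1 to 236 against 121 to 196 CPM). Most of that sum was Dcn (155 ± 80.1 against 113 ± 43.0 CPM), while the median log2 fold change of the 6 was 0.84. The part of these cells in the levels of the integrins and Cd44 was not tested.

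Markers of the neurons themselves were called too. Of 12 nociceptor and neuron markers, the CGRP gene Calca was among those lower and the peripherin gene Prph was higher. Mrgprd (159 ± 144 against 537 ± 47.7 CPM) was not called, though its mice did not overlap. The same held for Tubb3 (log2 fold change 0.40), Uchl1 (0.46) and Elavl4 (-0.23). Of the 5 markers of A-fiber neurons, 0 were called (1 higher and 0 lower at an unadjusted p under 0.05).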

How the data were processed

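RNA-seq counts of 24 libraries were used. The deposited values were counts per gene that the authors had made with HTSeq from reads aligned by STAR to mm10, and they were not normalized (versions and strand setting are not given in the sources used here). Reads that HTSeq assigned to no gene, 47.6% to 55.9% of its totals per library, were left out. The authors' deposited table of their own DESeq2 comparison was not used. The 3 libraries of each mouse were added up, and mice were compared with R 4.3.3 and edgeR 4.0.16 (filterByExpr, TMM, quasi-likelihood F-test, Benjamini-Hochberg adjustment over 17178 genes), with limma 3.58.1 and DESeq2 1.42.0 for alternatives. A gene was called with an adjusted p below 0.05 and a change of over 0.5 on the log2 scale, the thresholds of the study. Standard errors were derived from the F statistic of each gene. Libraries were amplified without molecular identifiers, so replicate SDs are given rather than counting intervals. No 2 libraries were duplicates (highest correlation 0.981). Exon lengths and coordinates are from GENCODE M21 (GRCm38), which named 47224 of 47643 identifiers, and 2 listed names, Gpr56 and Tmem2, are older aliases that matched none.

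The 10 genes, the pathway lists and the marker lists were chosen with earlier results of these data known. The text names the 10 genes, Tsc2, and in each list the genes called, or the 5 with the smallest adjusted p in a direction. In some marker lists it also names the marker of highest level. Csf1r, Cd68, the markers of low level, and Msn, Git1, Nrp1, Hapln1 and Mbp were named after their values were seen. So were C1qb, Aif1, Mrc1, Mrgprd, Tubb3, Uchl1 and Elavl4. Of the 5 red blood cell markers, 3 were tested and 0 called, with 3 lower at an unadjusted p under 0.05. Sequences of the proteins were not used here. A marker that meets this rule is not reported here.

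The fit was tested on simulated data with 200 changed genes. Of 94 genes changed by 1 on the log2 scale edgeR called 31, and of 97 changed by 2 it called 55, with 0 of the wrong sign. DESeq2 called 48 and 69 of them. Of 16386 unchanged genes, edgeR called 2 and DESeq2 33. Many true changes of these sizes were thus not called. Equal replicate numbers share a sex. Deviations from the genotype means correlated at 0.184, 0.185, 0.108 and 0.199 for replicates 1 to 4 over 8445 genes (log2 CPM with a prior count of 2). All were above the limit of 0.1, and by that rule the numbers would be pairs. The main fit had no block, so its p-values and calls leave such a pairing out, and the block was 1 of the alternatives. A replicate block is given where it changes the call of a gene named in the text. With log2(CPM + 1) the values were 0.0831, 0.108, 0.0187 and 0.107, and rank correlations were 0.0043, 0.0602, -0.0801 and 0.0359. With the prior count of 2, pairs of the same sex with unequal numbers had 0.0627 to 0.198. The check therefore cannot tell a pairing by number from a shared sex. The alternatives were another tool (DESeq2), other scalings (DESeq2 size factors, upper quartile), a test of unfiltered genes, the replicate block, a term for sex, equal weights for libraries, 24 separate libraries in limma-voom (mouse as random effect), each mouse left out, and 2 other fold thresholds.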

Additional observations from a re-analysis of the deposited data

Results flagged for a closer look

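Of 22 sets of 4 mice looked at (each of the 10 genes and Tsc2 in each genotype), 2 held a mouse far from the others, where chance gives about 1.1. Both were control replicate 4. Its Itga5 level of 0.542 CPM stood apart from the next control mouse at 0.0904 CPM, and its Itga9 level of 4.96 CPM from the next at 0.587 CPM. The Itga5 counts of this mouse lay mostly in 1 library, while its Itga9 level set the sign of the genotype difference. The cause was not tested.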

How the results depend on the processing

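Itga5, Itga7, Itgb1, Cd44 and Tsc2 kept their direction and their call under all 16 alternatives, and Itgb5 lost its call in 12 (adjusted p from 0.00872 to 0.122). The replicate block took away the call of Itgb5 and changed no other of the 10. Between 4 and 6 of the 10 were called higher, 4 to 5 with 1 mouse left out, and 0 lower throughout. The median log2 fold change of the 10 was 1.14 with the replicate block, 1.08 with 24 libraries (where Itga9 could not be fitted) and 0.75 (without Nav-Tsc2 replicate 4) to 1.12 (without control replicate 1) with 1 mouse left out. Itga9 ranged from -2.45 to 0.30 with 1 mouse left out, and was 0.30 without control replicate 4. Over the 6 pathway lists, 11 genes were lower and 18 higher, against 17 lower with DESeq2, and 6 lower and 11 higher at a log2 fold change past 1. Over the 8 marker lists, 3 were lower and 7 higher, against 5 lower with DESeq2, 5 lower with the replicate block and 12 higher with 24 libraries. Over all genes, 53.3% of those called were higher, and 63.8% with the 24 libraries. Among the pathway genes called, the replicate block took away the calls of Itgb6, Tns2 and Nid1. Of 504 counts of single lists, 431 stayed within 1.5 times. The cause of these changes was not tested. A gene that was not called is not shown to be equal in the genotypes.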
